A study of Homo sapiens with 4 samples.

Results

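The genes described here encode enzymes that place or convert RNA modifications, apart from the main m6A writers, together with close relatives of these enzymes that share their names. They were taken by gene symbol: the METTL, NSUN, TRMT, PUS, PUSL, FTSJ, ADAR, ADAT, ELP, CTU and THUMPD families and the DUS genes ending in L, with METTL3, METTL14 and METTL16, known m6A writers, left out. The symbols took 71 of the 14911 gene names with a count, and 32 of these 71 averaged 50 counts or more across the 4 libraries, as did 5320 genes in all. The rule rests on the symbols alone, but it and the gene lists below were set with earlier results of these data known.

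The libraries are m6A-seq of poly(A) RNA from HEK293T cells, a line derived from human embryonic kidney that expresses SV40 large T antigen. In m6A-seq, fragmented mRNA is sequenced before (input) and after immunoprecipitation of the m6A-bearing pieces (m6A-IP). An input and an IP library were made from control cells, which carry a control hairpin (shCTL), and the same 2 from cells whose hairpin targets ALKBH5 (shA5), a demethylase that removes m6A. All of these cells had been exposed to X-rays (10 Gy in the methods), so there was no unexposed group. The shRNAs were delivered with lentivirus and puromycin selection, and which of the 2 ALKBH5 shRNAs was used and the time from exposure to harvest are not given for these libraries in the sources used here. Each group is a single library, which leaves every difference without a replicate check. No p-value was therefore computed, and the 95% counting intervals given below cover counting error only.

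The deposited values are read counts per transcript. The shCTL libraries held 2237819 (input) and 3944402 (IP) counts, and those of shA5 held 1311390 (input) and 3148119 (IP). The target of the knockdown had 486 input counts in shCTL and 145 in shA5, and ALKBH5 input RNA was lower in shA5 by a log2 value of -0.97 (95% counting interval -1.25 to -0.70) after scaling to library totals. Of the markers of HEK293-derived cells, KRT8 had 27 to 117 counts and CDH2 5 to 23, KRT18 had 4 to 30, VIM 2 to 8 and NEFM 2 to 8, and PAX2 had at most 1. Blood, liver and muscle markers (PTPRC, CD3E, ALB, MYH7 and HBB) had 0 counts in every library, which allows up to 0.761 to 2.29 CPM (counts scaled to the library total) at a floor of 3 counts. The 71 genes took 0.367% of the input and 0.418% of the IP counts in shCTL, and 0.387% and 0.452% in shA5.

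Most chemical marks in human RNA sit on transfer RNA and ribosomal RNA, where they shape folding, stability and decoding. TRMT, NSUN and several METTL enzymes transfer methyl groups from S-adenosylmethionine, PUS enzymes turn uridine into pseudouridine, DUS enzymes reduce it to dihydrouridine, and ADAT and ADAR enzymes deaminate adenosine to inosine. The elongator complex (ELP) and the CTU pair build the modified uridine at the wobble position of the anticodon. Mutations in several of these genes cause inherited neurological or mitochondrial disease. The messages of these enzymes are themselves mRNAs that can carry m6A, and that is what was measured here.

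m6A is placed in a short context, often one that begins with GGAC, and is known to be dense near stop codons. For the 5 messages with the lowest and 4 of the 5 with the highest m6A enrichment in shCTL, the match to GGACA, to the form GGACC or to the form GGACT nearest the stop codon of the most counted transcript is shown with 10 bases on either side, 5′ to 3′ on the sense strand, from hg38 with Gencode v44. Capitals mark the motif, and the windows are shown so that the ends of the m6A-rich and m6A-poor messages can be read side by side.
ADAT3: gccgctggctGGACCccgacacgta
TRMT44: cggccaccccGGACCaccccgagga
TRMT10C: tatttccaaaGGACAgtattatcta
TRMT61A: ggccagagtgGGACAgcaggaaggg
METTL17: agtcacctttGGACCctcgacctgg
METTL2B: agaatctggtGGACCgccgactgca
ADAT2: aaagtgacctGGACAagattcatag
DUS1L: cccacccccaGGACTgctgctggag
NSUN2: cgtgactgagGGACAgagagcagga
The first 4 belong to the high end and the last 5 to the low end.

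In ADAT3 the motif lay at chr19:1913136-1913140 on the plus strand, in coding sequence of exon 2 of 2, with its A 13 nt before the end of the stop codon. That of TRMT44 lay at chr4:8475973-8475977 (plus strand, coding sequence of exon 11 of 11, 26 nt before). That of TRMT10C lay at chr3:101565633-101565637 (plus strand, coding sequence of exon 2 of 2, 358 nt before). That of TRMT61A was in the 3′ UTR, at chr14:103534963-103534967 (plus strand, exon 4 of 4, 144 nt after the stop codon). Among messages at the low end, METTL17 held its nearest match farther away, and the other 4 held it within 99 nt of the stop codon. METTL17 had it at chr14:20995921-20995925 (plus strand, coding sequence of exon 11 of 13, 469 nt before) and METTL2B at chr7:128501817-128501821 (plus strand, coding sequence of exon 8 of 8, 97 nt before). ADAT2 had it in the 3′ UTR at chr6:143428418-143428422 (minus strand, exon 6 of 6, 43 nt after), and DUS1L in the 3′ UTR at chr17:82058088-82058092 (minus strand, exon 14 of 14, 25 nt after). NSUN2 had it at chr5:6600023-6600027 (minus strand, coding sequence of exon 19 of 19, 99 nt before). The motif is common: 99.3% of the most counted transcripts of 5307 genes held at least 1 match on the sense strand, as did all 32 of these messages, at a median of 3.38 matches per kb over all genes. GGACT alone was in 93.3% of transcripts and in 30 of the 32, TRMT61A and TRMT10C being without it. A match is a description of sequence and not a measured site.

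For each gene, m6A enrichment was taken as log2 of IP CPM over input CPM, with 0.5 CPM added to each, and a gene is called enriched or depleted where the ratio is at least 1.5-fold. Of the 32 messages with enough counts, 9 (28.1%) were enriched in shCTL, against 22.5% of all 5320 genes, and 13 (40.6%) were depleted, against 30.3%. In shA5, 9 were enriched (24.3% of all genes) and 14 depleted (31.7%). Messages for RNA modification enzymes were thus spread over both ends of the scale, from 1.59 for ADAT3 down to -2.44 for METTL17, with a median of -0.08 in shCTL beside -0.11 over all genes. In shA5 the median was -0.26, beside -0.10 over all genes. The medians and the counts of depleted messages depended on the count filter, with values given in the last section. In both populations at once, 7 messages (21.9%) were enriched, beside 18.7% of all genes, and 13 (40.6%) were depleted, beside 26.3%. The sign was the same in both for 31 of 32 (96.9%), as it was for 90.02% of all genes.

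**Figure D1:**
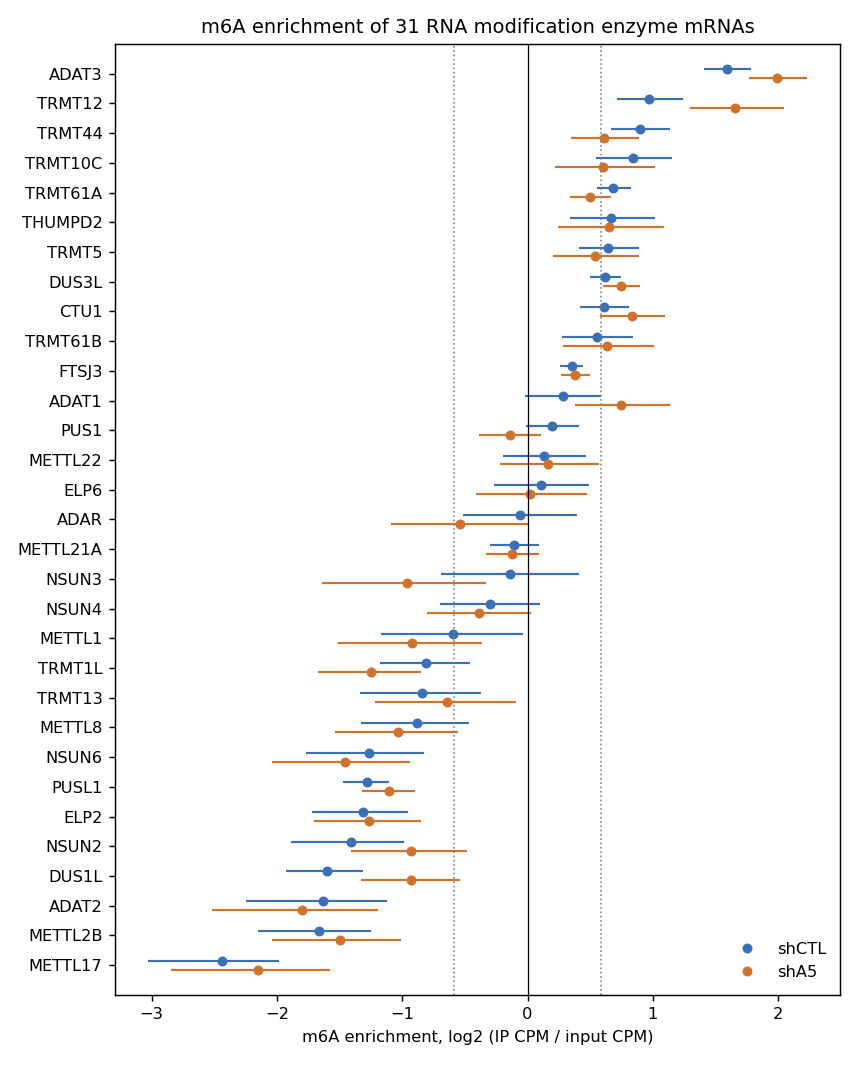
m6A enrichment (horizontal axis, log2 of IP CPM over input CPM) of 31 of the 32 messages, ordered by their value in shCTL, for shCTL (blue) and shA5 (orange). Points are 1 library pair each, bars are 95% counting intervals and dotted lines mark 1.5-fold. ADAT3 and TRMT12 stand at the top and METTL17 at the bottom in both populations.

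Messages of the transfer RNA methyltransferases made up much of the enriched end. The count filter averages input and IP counts, so a message with many IP reads passes it more easily, and its part was not tested. Of the 18 TRMT and FTSJ genes, 9 passed the count filter. Of these 9, 7 lay above 0 in both populations, with a median enrichment of 0.64 in shCTL and 0.54 in shA5, 5 (55.6%) were enriched in shCTL, beside 22.5% of all genes, and 2 (22.2%) were depleted, beside 30.3%. TRMT12, which acts in the synthesis of the wybutosine base of phenylalanine tRNA, had 152 input and 526 IP counts in shCTL and 68 input and 517 IP counts in shA5. Its enrichment was 0.97 (0.71 to 1.24) in shCTL and 1.65 (1.30 to 2.05) in shA5, so its IP reads outnumbered its input reads most clearly in shA5. TRMT44, annotated as a ribose methyltransferase of serine tRNA, had 191 input and 628 IP counts in shCTL and 143 and 525 in shA5. Its enrichment was 0.90 (0.66 to 1.14) and 0.61 (0.34 to 0.89). TRMT10C, a subunit of mitochondrial RNase P that also methylates mitochondrial tRNA, had 121 input and 384 IP counts in shCTL and 69 and 253 in shA5, for an enrichment of 0.84 (0.55 to 1.16) and 0.61 (0.22 to 1.02).

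TRMT61A is the catalytic subunit of the enzyme that makes 1-methyladenosine in tRNA, with TRMT6 as its partner. It had 602 input and 1708 IP counts in shCTL and 398 and 1353 in shA5, an enrichment of 0.69 (0.55 to 0.82) and 0.50 (0.34 to 0.67). TRMT6 was too low for the filter, with 36 input and 30 IP counts in shCTL and 35 and 22 in shA5, and its ratio was on the other side of 0 at -1.03 (-1.83 to -0.34) and -1.86 (-2.77 to -1.12). The messages of the 2 subunits thus had intervals that did not overlap in either population. Over all genes, 33.7% of intervals lay wholly above 0 in shCTL and 42.3% wholly below, so such a contrast is not rare. In shA5 these shares were 32.6% and 39.1%. TRMT5, which methylates guanosine beside the anticodon, had 193 input and 533 IP counts in shCTL and 94 and 328 in shA5, an enrichment of 0.64 (0.41 to 0.89) and 0.54 (0.20 to 0.89). FTSJ3, a ribose methyltransferase of ribosome assembly, had the most counts of all 71 genes, 1440 input and 3241 IP in shCTL and 848 and 2652 in shA5. Its enrichment was below the 1.5-fold line at 0.35 (0.26 to 0.44) and 0.38 (0.27 to 0.49). At the other side of 0, TRMT1L, a relative of the guanosine dimethyltransferase TRMT1, had 132 input and 132 IP counts in shCTL and 102 and 102 in shA5. With the IP libraries the deeper ones, these equal counts are a depletion of -0.81 (-1.18 to -0.46) and -1.25 (-1.67 to -0.85).

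Enrichment went with the GC content of transcripts over all genes (Spearman 0.36 over 5307 genes of the same libraries), and its part in these values was not tested beyond removing the trend. With that trend removed, 7 of the 9 TRMT and FTSJ messages lay above 0 in shCTL and 7 in shA5, but not the same ones. TRMT61A moved from 0.69 to 0.21 in shCTL and from 0.50 to -0.05 in shA5, so that its direction in shA5 turned, and TRMT13 moved from -0.84 to -0.25 in shCTL and from -0.65 to 0.05 in shA5. TRMT1L moved to -0.30 in shCTL, within 1.5-fold, and to -0.66 in shA5, still past it. TRMT44 moved from 0.61 to 0.43 in shA5 and no longer reached 1.5-fold there, but stayed past it in shCTL at 0.74. In shCTL, TRMT10C, whose transcript has a GC content of 39.0%, moved up to 1.33 and TRMT5 to 1.13.

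Messages of METTL enzymes that act on RNA lay on the depleted side. Of the 9 METTL genes listed as RNA methyltransferases or ribosome factors, 4 passed the filter, and all 4 were depleted in both populations, beside 30.3% of all genes in shCTL and 31.7% in shA5. Their median was -1.27 in each. With 2 CPM added in place of 0.5 CPM, 3 of the 4 were depleted in shCTL and 4 in shA5. METTL17, an assembly factor of the mitochondrial ribosome, had 134 input and 42 IP counts in shCTL and 65 and 34 in shA5. Its enrichment was -2.44 (-3.03 to -1.98) and -2.15 (-2.84 to -1.58), the lowest of the 32 in both populations. METTL2B, which makes 3-methylcytidine in tRNA, had 121 input and 66 IP counts in shCTL and 73 and 61 in shA5, and its values were -1.66 (-2.15 to -1.25) and -1.50 (-2.04 to -1.01). METTL2B is a near copy of METTL2A, with which it shares 33.7% of its stretches of 50 bases, so the split of reads between them is uncertain. METTL2A itself had 31 input and 13 IP counts in shCTL and 13 and 13 in shA5.

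METTL1 makes 7-methylguanosine in tRNA together with the WD-repeat protein WDR4. METTL1 had 51 input and 59 IP counts in shCTL and 48 and 60 in shA5, an enrichment of -0.59 (-1.17 to -0.04) and -0.92 (-1.51 to -0.36). WDR4, which is outside the symbol families, had 202 input and 481 IP counts in shCTL and 123 and 517 in shA5, with 0.43 (0.19 to 0.68) and 0.80 (0.52 to 1.10). The partners therefore stood on opposite sides of 0 in both populations, with intervals that did not overlap. As for TRMT61A and TRMT6, such a contrast is not rare given the shares of all genes above. METTL1 shares exons with CYP27B1 on the same strand and 9.63% of its 50-base stretches with METTL1P1, so some of its reads could belong elsewhere. METTL8, a mitochondrial 3-methylcytidine enzyme, was depleted at -0.88 and -1.03, which became -0.49 and -0.56 with the GC trend removed and so passed inside 1.5-fold. METTL21A and METTL22, which methylate proteins and not RNA, stood near 0 at -0.11 and 0.13 in shCTL and -0.12 and 0.17 in shA5.

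All 4 of the 6 NSUN genes that passed the filter, which encode 5-methylcytidine enzymes, lay below 0 in both populations, beside 54.5% of all genes in shCTL and 53.7% in shA5. Depletion past 1.5-fold was seen for 2 of the 4 in shCTL, beside 30.3% of all genes, and for 3 in shA5, beside 31.7%, and their median was -0.78 in shCTL and -0.95 in shA5. NSUN2, which methylates tRNAs and other RNAs in the nucleus, had 107 input and 70 IP counts in shCTL and 73 and 91 in shA5. Its enrichment was -1.40 (-1.89 to -0.98) and -0.93 (-1.41 to -0.48). NSUN6, an enzyme of the tRNA acceptor stem, was depleted at -1.27 (-1.77 to -0.82) and -1.46 (-2.04 to -0.94). The mitochondrial enzymes NSUN3 and NSUN4 lay nearer to 0 in shCTL, at -0.14 (-0.69 to 0.41) and -0.30 (-0.69 to 0.10). In shA5, NSUN3 was depleted at -0.96 (-1.64 to -0.33) and NSUN4 was at -0.39 (-0.81 to 0.03). NSUN3 was 1 of the messages whose sign in shCTL depended on GC content, since it became 0.37 with that trend removed. Its shA5 value then became -0.37, within 1.5-fold, which left 2 of the 4 depleted in shA5, NSUN2 and NSUN6.

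The deaminase messages were spread widely, from the highest value of the 32 to values among the lowest. ADAT2 and ADAT3 form the enzyme that makes inosine at the wobble position of tRNA, ADAT2 being the catalytic subunit and ADAT3 its partner. ADAT3 had 279 input and 1484 IP counts in shCTL and 170 input and 1630 IP counts in shA5. That is an enrichment of 1.59 (1.41 to 1.78), or 3.01-fold, in shCTL and 1.99 (1.77 to 2.23), or 3.98-fold, in shA5, the highest of the 32 in both. ADAT2 had 78 input and 43 IP counts in shCTL and 51 and 34 in shA5, a depletion of -1.63 (-2.25 to -1.12) and -1.80 (-2.52 to -1.19). The messages of the 2 subunits of this enzyme were thus near opposite ends of the scale, and remained on opposite sides with the GC trend removed, at 0.69 for ADAT3 and -1.15 for ADAT2 in shCTL. ADAT3 shares exons with SCAMP4 on the same strand and 19.9% of its 50-base stretches with that gene, so part of its reads could be those of SCAMP4. ADAT1, which deaminates alanine tRNA, had 133 input and 285 IP counts in shCTL and 74 and 299 in shA5, with 0.28 (-0.02 to 0.59) and 0.75 (0.38 to 1.14).

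ADAR, which edits adenosines in double-stranded RNA, had 67 input and 113 IP counts in shCTL and 47 and 77 in shA5. Its values of -0.06 (-0.51 to 0.39) and -0.54 (-1.09 to 0.00) had intervals that reached 0. Its relatives ADARB1, with 6 input and 19 IP counts in shCTL and 4 and 19 in shA5, and ADARB2, with 1 count in all, were too low to place.

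The genes of wobble uridine synthesis were mixed. CTU1, which puts sulfur on that uridine, had 301 input and 810 IP counts in shCTL and 151 and 647 in shA5, an enrichment of 0.61 (0.42 to 0.81) and 0.83 (0.58 to 1.10). With the GC trend removed these values were -0.08 and 0.03, so that the enrichment was lost and its sign in shCTL turned, and its transcript has a GC content of 68.3%. Its partner CTU2 had 21, 16, 13 and 16 counts, in the order input and IP of shCTL, then input and IP of shA5. Among the elongator subunits, ELP2 had 143, 100, 95 and 94 counts and was depleted at -1.32 (-1.72 to -0.96) and -1.26 (-1.71 to -0.85). ELP6 had 91, 173, 62 and 151 counts and stood near 0 at 0.11 (-0.27 to 0.49) and 0.02 (-0.41 to 0.47). Under the filter were 3 subunits, with 3, 1, 0 and 0 counts for the catalytic subunit ELP3, 16, 11, 20 and 9 for ELP4 and 0, 1, 4 and 0 for ELP5.

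The pairs of pseudouridine and dihydrouridine synthases that passed the filter were split. PUSL1, a mitochondrial pseudouridine synthase, had 567 input and 409 IP counts in shCTL and 350 and 390 in shA5, a depletion of -1.28 (-1.48 to -1.10) and -1.10 (-1.32 to -0.89). Exons of ACAP3 and INTS11 overlap PUSL1 on the other strand, and the use of strand in the counting is not given in the sources used here. PUS1, which acts on tRNA in the cytoplasm, nucleus and mitochondria, had 276 input and 558 IP counts in shCTL and 203 and 442 in shA5, close to even at 0.20 (-0.01 to 0.41) and -0.14 (-0.38 to 0.11). DUS3L had 766 input and 2079 IP counts in shCTL and 474 and 1913 in shA5, and was enriched at 0.62 (0.50 to 0.74) and 0.75 (0.60 to 0.90). DUS1L had 242 input and 139 IP counts in shCTL and 99 and 124 in shA5, and was depleted at -1.60 (-1.93 to -1.31) and -0.93 (-1.33 to -0.54). Both DUS enzymes reduce uridines of tRNA, and their transcripts have a like GC content of 64.8% for DUS3L and 63.9% for DUS1L. With the GC trend removed DUS3L was inside 1.5-fold, at 0.14 and 0.19, and DUS1L stood at -2.03 and -1.42.

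PUS1 was a message whose transcripts differed from each other, an item picked after its values were seen. Its most counted transcript, ENST00000376649, with a 3′ UTR of 2310 nt, had 192 input and 456 IP counts in shCTL and 128 and 368 in shA5, an enrichment of 0.43 (0.18 to 0.68) and 0.26 (-0.03 to 0.56). ENST00000542167, with a 3′ UTR of 273 nt, had 52 input and 37 IP counts in shCTL and 49 and 23 in shA5, a depletion of -1.26 (-1.96 to -0.67) and -2.28 (-3.14 to -1.61). Reads of that form were thus scarcer in the IP than in the input, and reads of the long form were not. A further form with a 3′ UTR of 273 nt, ENST00000443358, had 27, 46, 18 and 23 counts and lay between them, at -0.05 (-0.77 to 0.69) and -0.87 (-1.86 to 0.07). The remaining listed form, ENST00000535067, also has a short 3′ UTR, of 271 nt, but had only 5, 19, 8 and 28 counts and lay above 0 at 0.96 (-0.36 to 2.89) and 0.51 (-0.63 to 1.89), so the forms did not sort by 3′ UTR length. In 26 of the 32 messages the most counted transcript held at least 90% of the counts, so few of them allow such a comparison, and how reads shared between transcripts were assigned is not given in the sources used here.

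Of the 9 messages enriched in shCTL, 6 had fewer than 1 exon junction per kb, as had 2 of the 13 depleted ones. Over all genes with an annotated transcript the share was 24.3%, with 46.3% among the enriched and 15.3% among the depleted genes. TRMT12 is a gene of 1 exon, TRMT10C and ADAT3 have 2 exons each, CTU1 has 3 and TRMT61A has 4, at 0.00 to 0.94 junctions per kb. METTL17, at the low end, has 13 exons in 1586 nt, or 7.57 junctions per kb. There were exceptions on both sides. DUS3L, with 13 exons in 2038 nt and 5.89 junctions per kb, was enriched, whereas ADAT2, with a last exon of 5675 nt and 0.80 junctions per kb, and METTL2B, with a last exon of 4841 nt and 1.22 junctions per kb, were among the lowest. Over the 32 messages the Spearman correlation of enrichment in shCTL with junctions per kb was -0.37, and over 5307 genes it was -0.29. In shA5 the same values were -0.22 and -0.30. These are descriptions across genes of the same libraries, and genes are not replicates.

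**Figure D2:**
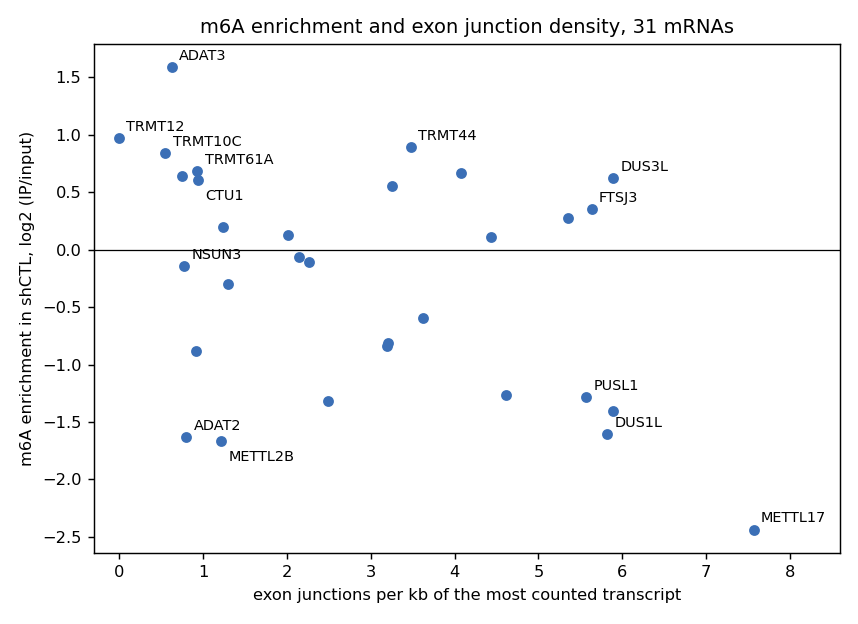
m6A enrichment in shCTL (vertical axis, log2 of IP over input) against exon junctions per kb of the most counted transcript (horizontal axis), 1 point for each of 31 of the 32 messages. TRMT12, ADAT3 and TRMT10C lie at the upper left and METTL17 at the lower right, while ADAT2 and METTL2B lie low at few junctions and DUS3L high at many.

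ADAT3 also carried the densest motif of the 32, with 15 matches to the 3 forms in 1599 nt (9.38 per kb), followed by DUS3L with 16 in 2038 nt (7.85 per kb), all 16 of them in coding sequence. Motif density did not order the rest in the same way. METTL1, a depleted message, had 6.53 per kb, and TRMT12, an enriched one, had 1.81 per kb with 4 matches in 2207 nt.

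Levels of input RNA were compared between genes as CPM per kb of transcript, summed over the listed transcripts. The highest was PUSL1, at 202 CPM per kb in shCTL and 212 in shA5. Exons of ACAP3 and INTS11 overlap PUSL1 on the other strand, and exons of PSMC5 overlap FTSJ3. As the use of strand is not given, these levels could hold reads of the overlapping genes. FTSJ3 followed at 181 and 182, DUS3L at 168 and 179, METTL21A at 119 and 159 and TRMT61A at 83.6 and 94.3. The median of the 32 was 24.9 CPM per kb in shCTL, and the lowest were METTL8, at 4.34 and 5.30, and NSUN3, at 3.27 and 4.51. PUSL1, FTSJ3 and DUS3L were the 3 highest in both populations, and with 1 library each the order of neighbours cannot be set against a replicate spread.

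**Figure D3:**
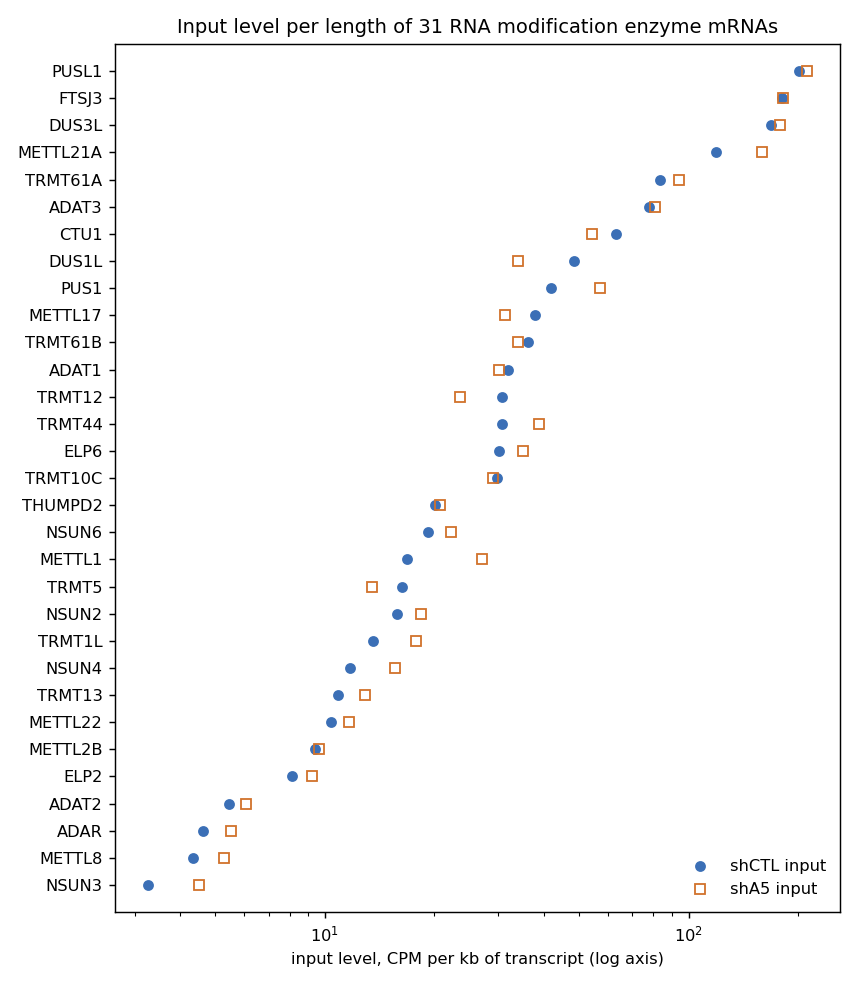
Input level (horizontal log axis, CPM per kb of transcript) of 31 of the 32 messages in shCTL (filled circles) and shA5 (open squares), 1 library each. Levels run from 3.27 for NSUN3 to 202 for PUSL1 in shCTL, and METTL21A and METTL1 show squares to the right of their circles.

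The next comparison asked whether knockdown of ALKBH5 went with other amounts of these mRNAs in X-ray-exposed cells. Of the 32, 1 was at least 1.5-fold higher in the shA5 input, METTL1, against 3.44% of all 5320 genes, and 0 were at least 1.5-fold lower, against 6.43%. Requiring also that the counting interval leave out 0 gave the same 1 and 0 messages, against 3.1% and 5.51% of all genes. The differences leaned upward without being large, since 23 of 32 (71.9%) were above 0, beside 47.5% of all genes, and the median log2 difference was 0.12, beside -0.02 over all genes. The counting interval lay above 0 for 6 messages and below 0 for 1, and included 0 for 25. Over all genes, 12.9% of intervals lay above 0 and 15.6% below. In bulk RNA, fewer cells of a kind and less RNA per cell cannot be told apart.

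METTL1 input RNA was 22.8 CPM in shCTL and 36.6 CPM in shA5, a log2 difference of 0.67 (0.08 to 1.28) that rests on 51 and 48 counts. METTL21A, with 350 and 276 input counts, was higher by 0.43 (0.20 to 0.66), and its IP counts of 573 and 609 were higher by 0.41 (0.25 to 0.58), so both libraries of shA5 showed it. NSUN4, with 93 and 76 input counts, was higher by 0.47 (0.02 to 0.93), and NSUN3, with 47 and 38, by 0.46 (-0.19 to 1.11). All 4 NSUN messages that passed the filter were on the higher side, by 0.21 to 0.47 with a median of 0.34, where 47.5% of all genes lay, and 0 of the 4 reached 1.5-fold. TRMT1L differed by 0.40 (0.01 to 0.78), TRMT44 by 0.35 (0.03 to 0.67) and PUS1 by 0.33 (0.06 to 0.59). At the lower end, DUS1L, with 242 and 99 input counts, had a log2 difference of -0.52 (-0.87 to -0.18), the only one of the 32 whose interval lay below 0. Its most counted transcript alone gave -0.65, past 1.5-fold. TRMT12 was at -0.39 (-0.82 to 0.03), METTL17 at -0.27 (-0.72 to 0.17), TRMT5 at -0.27 (-0.64 to 0.10) and CTU1 at -0.22 (-0.52 to 0.06), each with an interval that included 0. FTSJ3, the most deeply counted message, differed by 0.01 (-0.12 to 0.13).

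**Figure D4:**
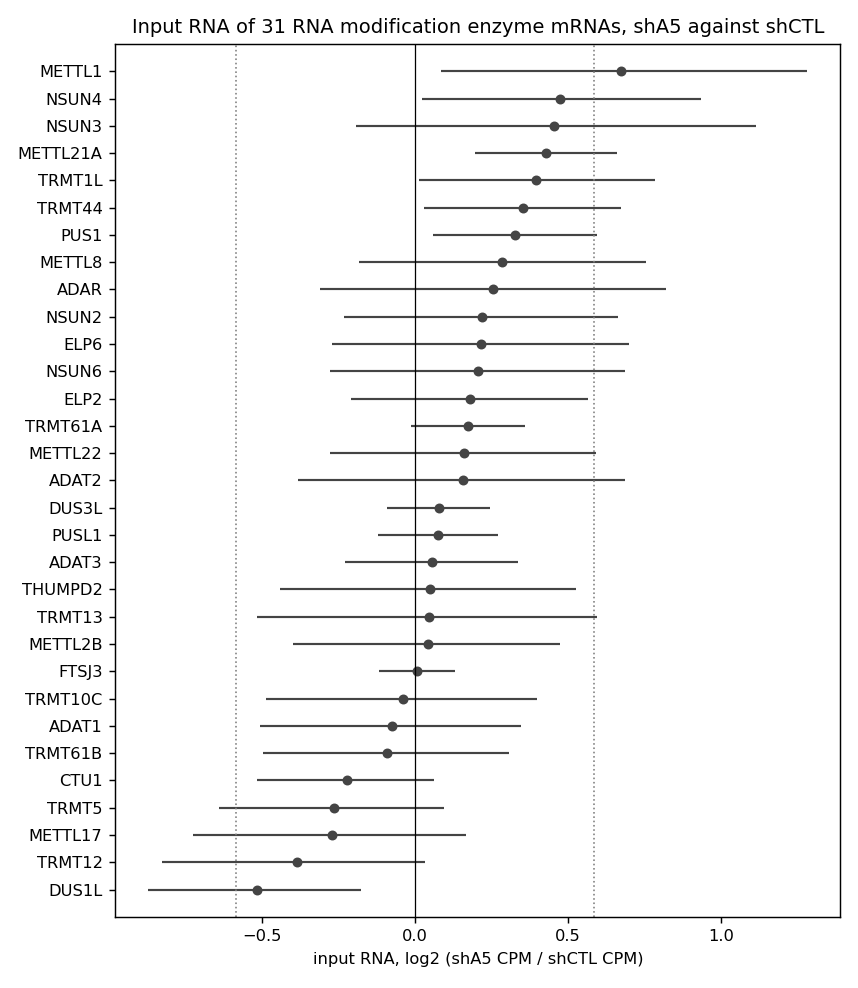
Log2 difference of input CPM between shA5 and shCTL (horizontal axis) for 31 of the 32 messages, with 95% counting intervals as bars and dotted lines at 1.5-fold. METTL1 alone lies past the upper line, and the bar of DUS1L alone lies wholly below 0.

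The last comparison asked whether m6A enrichment of these messages differed between ALKBH5 knockdown and control cells. It was at least 1.5-fold higher in shA5 for 2 of the 32, TRMT12 and DUS1L, against 5.38% of all genes, and at least 1.5-fold lower for 1, NSUN3, against 5.09%. With an interval that leaves out 0 as well, the 2 higher ones stayed, against 3.27% of all genes, and 0 were lower, against 3.55%. The median difference was -0.02, beside 0.00 over all genes, and 28 of 32 intervals (87.5%) included 0, beside 83.8% over all genes. For TRMT12 the difference was 0.69 (0.23 to 1.16). It combined an IP higher by 0.30 (0.12 to 0.48) with the lower input given above, which had 68 counts in shA5. DUS1L differed by 0.67 (0.17 to 1.19), with an IP difference of 0.16 (-0.20 to 0.52), so its value came mainly from the lower input RNA.

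ADAT3 differed by 0.40 (0.10 to 0.71). Its input differed by 0.06 (-0.23 to 0.34), and its IP was higher by 0.46 (0.36 to 0.56). With the GC trend removed, the input of ADAT3 differed by 0.38 and its enrichment by 0.22, so its split between input and IP depended on that step. NSUN2 was higher by 0.47 (-0.17 to 1.14) and ADAT1 by 0.47 (-0.02 to 0.96), both with intervals that included 0. The overlap of ADAT1 with an unnamed gene on the same strand, 7.80% of its 50-base stretches, adds to that uncertainty.

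On the lower side, NSUN3 differed by -0.82 (-1.71 to 0.03) from 47, 75, 38 and 46 counts, so the call rests on few reads and its interval included 0. PUS1 differed by -0.34 (-0.66 to -0.01), the only message whose interval lay below 0, and it was the 1 message of 32 whose enrichment had opposite signs in the populations. ADAR differed by -0.48 (-1.21 to 0.24), TRMT1L by -0.44 (-0.997 to 0.11) and METTL1 by -0.33 (-1.15 to 0.49). For FTSJ3 and DUS3L, whose counts are high, the intervals of -0.12 to 0.17 and -0.06 to 0.32 lie inside 1.5-fold, whereas for NSUN3, ADAR and METTL1 this depth cannot tell a difference of that size from none.

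**Figure D5:**
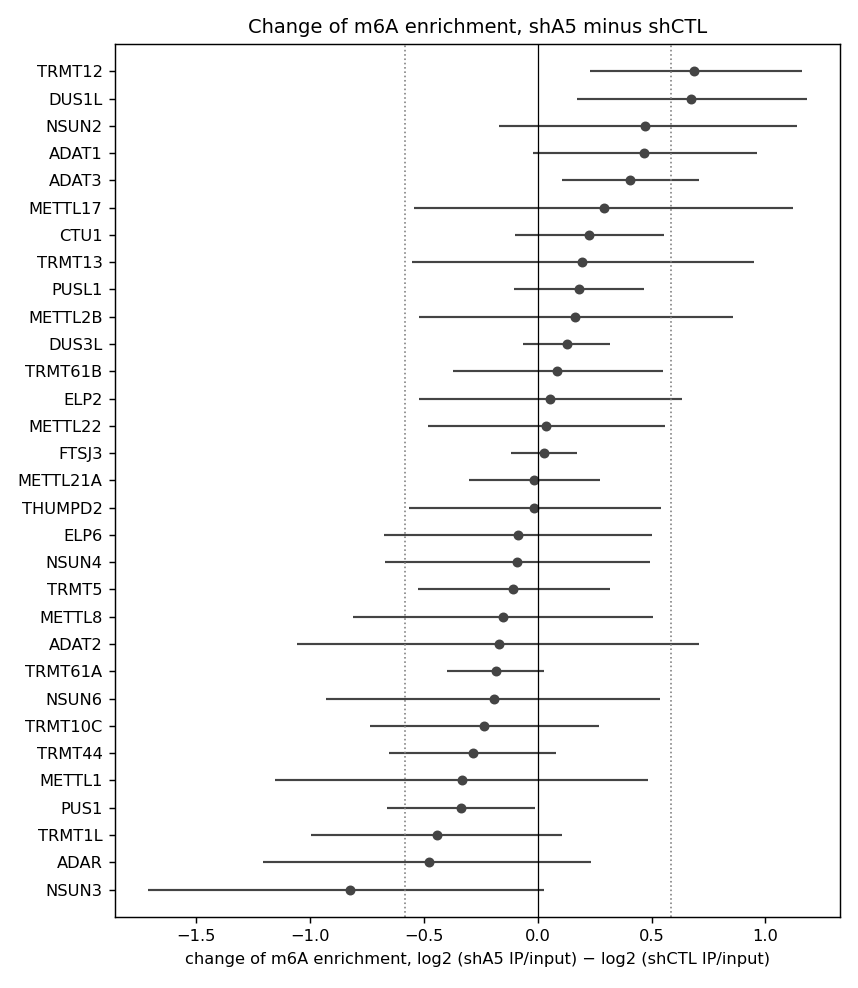
Difference of m6A enrichment, shA5 minus shCTL (horizontal axis, log2), for 31 of the 32 messages, with 95% counting intervals as bars and dotted lines at 1.5-fold. TRMT12 and DUS1L lie past the upper line, NSUN3 past the lower one, and most bars cross 0.

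A list of 63 other RNA modification genes that the symbol families do not take, such as the pseudouridine synthase complex of DKC1, the acetyltransferase NAT10 and the RPUSD and TYW genes, was measured in the same way. Of its 62 genes with a count, 34 passed the filter, 8 of these were enriched in shCTL (23.5%, beside 22.5% of all genes) and 9 depleted (26.5%, beside 30.3%), and their median enrichment was -0.22, beside -0.11. In the input, 2 were higher in shA5 by at least 1.5-fold, RPUSD1 and RPUSD2 (5.88%, beside 3.44% of all genes), and 0 were lower, beside 6.43%. For these 2 relatives of pseudouridine synthases the enrichment in shA5 was lower, which repeats the higher input counts, since their IP differences were 0.25 and 0.01. RPUSD2 had 31, 133, 42 and 107 counts and differed by -1.17 (-2.02 to -0.39), and RPUSD1 had 30, 80, 33 and 76 counts and differed by -0.64 (-1.56 to 0.25). TYW5, a wybutosine hydroxylase with 90, 84, 43 and 100 counts, had the higher enrichment in shA5, by 0.86 (0.16 to 1.58).

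The other 39 of the 71 genes were below the filter: 24 had a mean of 10 to 50 counts and 15 a mean under 10. For 5 of them, ELP3, ADARB2, NSUN7, METTL11B and METTL24, no library had more than 3 counts. The 71 genes had counts for 151 transcripts, 148 of which are listed in the Gencode annotation used here. TRMT112, the shared activator of several methyltransferases, had 17, 45, 7 and 17 counts. Of the enzymes it activates, TRMT11 had 90, 17, 47 and 12 counts, a ratio of -3.08 (-4.06 to -2.46) in shCTL and -3.08 (-4.28 to -2.30) in shA5 that was lower than any among the 32. METTL5, the partner that methylates ribosomal RNA, had 14, 4, 22 and 8 counts, and THUMPD3 had 25, 50, 23 and 22. For THUMPD3 the enrichment was 0.17 in shCTL and -1.27 in shA5, a difference of -1.44 (-2.70 to -0.32) on very few reads. THUMPD2, which passed the filter with 99, 278, 60 and 227 counts, was enriched at 0.67 and 0.65 and differed by -0.02 (-0.56 to 0.54).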

How the data were processed

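The authors deposited raw counts per Ensembl transcript for each library, leaving out transcripts with 0. Per the labels' processing notes and the methods, reads were converted with bcl2fastq 2.0, trimmed with fastp 0.23.2, aligned to hg38 with HISAT2 and sorted with SAMtools 1.9, with MACS2 for peaks and StringTie for quantification. Whether StringTie or another program wrote these whole-number counts, with which annotation and with what use of strand, is not given in the sources used here, and Gencode v44 holds 98.1% of the 28413 transcripts listed. Counts were summed per gene name and divided by library totals, and 0.5 CPM was added before log2 ratios. Intervals are exact conditional ones on the counts, for the change of enrichment from the conditional odds ratio, without the added 0.5 CPM. Peaks were not analysed here.

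Genes averaging 50 counts or more were used. Members and gene lists were chosen with earlier results of these data known. Values per library are given for the 5 highest and the 5 lowest members in enrichment, input difference and enrichment difference, the 5 highest in level, and members of the listed complexes. Alternatives were edgeR 4.0.16 TMM or DESeq2 1.42.0 size factors, other pseudocounts, filters, thresholds and call rules, the most counted transcript alone, and removal of a lowess trend on GC content (span 0.3). The steps were tested on simulated data. Computations used R 4.3.3 and Python 3.11.15 with pandas 2.3.3, numpy 2.4.6, statsmodels 0.14.6, scipy 1.17.1 and matplotlib 3.10.9. The counts of calls and medians cover all 32 genes, and 1 of them is not reported here by itself.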

Additional observations from a re-analysis of the deposited data

Results flagged for a closer look

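PUS1, a pseudouridine synthase, had an m6A enrichment of 0.20 in shCTL and of -0.14 in shA5, so the populations stood on opposite sides of 0. With 1 library per group the difference was not tested, and both counting intervals included 0. With the GC trend removed both values were below 0, at -0.04 and -0.41, and the most counted transcript alone gave values above 0 in both, 0.43 and 0.26.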

How the results depend on the processing

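No paired analysis was possible because there was only 1 library in a group, and for the same reason no library could be left out. Of 750 values recomputed under the alternatives, 694 moved by less than counting error (or, for counts of calls, stayed within 1.5 times), 55 moved further and 1 value past 1.5-fold turned its direction: the enrichment of CTU1 in shCTL, -0.082 with the GC trend removed. A further 12 values that lay within 1.5-fold changed sign, among them TRMT61A in shA5, NSUN3 in shCTL and PUS1 in shCTL with the GC trend removed and PUS1 in shA5 with the most counted transcript alone. TRMT13, outside the 750, turned in shA5 from -0.65 to 0.05 with the GC trend removed. With a mean of at least 10 counts (56 genes) the depleted messages numbered 24 in shCTL and 26 in shA5, input differences 7 higher and 3 lower, and enrichment differences 7 higher and 10 lower. With a mean of at least 200 counts (14 genes), 2 were depleted in each population, the medians of enrichment were 0.62 in shCTL and 0.57 in shA5, 0 inputs were higher, and enrichment was higher for 1 and lower for 0. Without a filter (71 genes), 16 and 17 were enriched, 27 and 32 depleted, 13 inputs higher and 7 lower, and enrichment was higher for 11 and lower for 15. The filters average input and IP counts, so a message can pass on its IP counts, and the enrichment values depend on the filter. How far these shifts come from that was not tested. At 2-fold, 1 and 2 were enriched, 8 and 8 depleted, 0 inputs were higher, and enrichment differed for 0 in either direction. Shares of all genes at these filters and at 2-fold are not given here, so these counts are without that comparison. Requiring also an interval without 0 left 0 messages with lower enrichment in shA5, and the most counted transcript alone gave 1 lower input, DUS1L. TMM and size factors moved no count of calls by over 1.5 times. The shA5 input, with 1311390 counts, is the shallowest library.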
